A study of Mus musculus with 10 samples.

Results

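Primitive endoderm genes are represented here by 9 genes of the mouse RNA-sequencing table, picked by name as regulators or markers of that lineage and measured among 18901 genes. They are the transcription factors Gata4, Gata6, Sox17, Sox7 and Foxa2, the endocytic proteins Dab2, Amn and Cubn, and the secreted protein Afp. All 9 passed the filter on low values, which kept 17075 genes with a normalised read count of at least 10 in at least 2 of the 10 libraries.

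The 10 libraries come from 5 lines of 1 strain background, a cross of mf1 and 129. Mouse embryonic fibroblasts with an Oct4/GFP reporter (Oct4/GFP MEF), grown in DMEM with FCS, were sequenced at passages 2 and 4. The other 4 lines were made from such MEF with retroviruses for Oct4, Sox2, Klf4 and c-Myc and were sequenced at passages 5 and 25, the iPS lines in KSR+LIF medium. They were a pre-iPS line, an iPS clone derived in standard conditions ('control'), and clones 1 and 2, both 'rNetrin-1 derived', for which recombinant Netrin-1 was added during reprogramming. Pre-iPS cells are cells that have started but not completed reprogramming. Each line was a single culture or clone, so its 2 libraries are repeated samples of 1 line, and p-values measure the spread between passages and not between independent clones.

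The primitive endoderm is the epithelium that forms beside the epiblast in the inner cell mass of the blastocyst. FGF4 acting through Grb2 favours it, Gata6 and then Sox17, Gata4 and Sox7 set up its programme, and Nanog opposes it. Its descendants are the parietal endoderm, which lays down a basement membrane, and the visceral endoderm, which takes up maternal nutrients through the cubilin, amnionless and megalin receptors with the adaptor Dab2 and secretes carrier proteins such as alpha-fetoprotein. None of these genes is private to the lineage: Gata4 and Gata6 also act in heart and mesenchyme, Sox17 and Sox7 in endothelium, Foxa2 in definitive endoderm, Dab2 in many cells including macrophages, Cubn and Amn in kidney and gut, and Afp in fetal liver.

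The RefSeq promoter table (GRCm38.p6, the assembly named mm10 in the submitters' processing notes) matched 5 of the 9 genes, namely Foxa2, Cubn, Amn, Dab2 and Afp. The 250 bases ending at the most upstream listed start are printed for 3 of them. Foxa2 and Cubn are shown because both were lower in pre-iPS than in iPS cells, and Dab2 because it was highest in MEF. Capitals mark a GATA-type motif, searched as AGATAA or AGATAG and as TGATAA or TGATAG, with their reverse complements, so on both strands.
Foxa2 (chr2:148046970-148047219, minus strand): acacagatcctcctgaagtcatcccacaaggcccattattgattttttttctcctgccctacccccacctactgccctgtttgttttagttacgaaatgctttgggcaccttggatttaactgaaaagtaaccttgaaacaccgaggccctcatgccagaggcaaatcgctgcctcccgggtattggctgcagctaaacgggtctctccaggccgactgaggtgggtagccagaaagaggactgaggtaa
Cubn (chr2:13491877-13492126, minus strand): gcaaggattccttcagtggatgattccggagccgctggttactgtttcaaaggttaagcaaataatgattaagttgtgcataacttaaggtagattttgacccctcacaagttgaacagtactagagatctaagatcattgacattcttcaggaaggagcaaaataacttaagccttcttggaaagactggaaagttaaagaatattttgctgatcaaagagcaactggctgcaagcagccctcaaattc
Dab2 (chr15:6299539-6299788, plus strand): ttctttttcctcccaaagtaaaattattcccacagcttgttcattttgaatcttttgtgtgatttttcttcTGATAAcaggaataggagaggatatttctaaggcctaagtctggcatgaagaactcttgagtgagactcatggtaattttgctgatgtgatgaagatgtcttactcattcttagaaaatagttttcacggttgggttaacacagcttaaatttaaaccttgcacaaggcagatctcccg
The Dab2 window held 1 copy, TGATAA, beginning 179 bases before the start, and the windows of Foxa2 and Cubn shown here held none. Among the other listed starts, the most downstream one of Foxa2 had AGATAA 183 bases upstream, while the windows of Amn, Afp and a second start of Dab2 had no match. Over all 32851 windows of this length, 26.5% held at least 1 match. The letters AACAAT, the core bound by many SOX factors, were found in no window of these 5 genes on either strand, against 9.42% of all windows. GC content was 39.6% for Cubn, 36.8% for Dab2 and 50.8% for Foxa2 in the stretches printed, with a median of 52.4% over all windows. These matches are letters only and say nothing of binding.

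On mm10, Gata4 lies on chr14:63198922-63271692 (minus strand), Sox7 on chr14:63943673-63950732 (plus), Sox17 on chr1:4490931-4497354 (minus), Gata6 on chr18:11052064-11085635 (plus) and Foxa2 on chr2:148042877-148046969 (minus). Dab2 lies on chr15:6299788-6440712 (plus), Amn on chr12:111271095-111276426 (plus), Cubn on chr2:13276338-13491813 (minus) and Afp on chr5:90490737-90508907 (plus). The library kit does not mark strand, so reads of overlapping genes on the other strand cannot be told apart. For Sox17 that concerns 804 of its 4772 merged exon bases (16.8%), which it shares with Gm37587. For Gata6, Dab2 and Cubn the shared part was 1.43% to 2.87%, and for the others it was 0.

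The values are edgeR pseudo-counts, that is, reads per gene scaled by the authors, and 1 read was worth between 0.888 and 1.18 units. The values could be turned back into whole reads, with 38110410 to 52946856 reads on genes per library. The MEF libraries had the most reads, and 1 read was also worth the most there (1.18 and 1.06). The scaled totals were thus not equal, and MEF values stand higher than they would with equal totals. The label of each line was checked against marker genes. The summed value of 10 fibroblast genes was 2979496 and 3124463 in the MEF libraries, against 20199 to 36746 in the 6 iPS libraries and 21110 and 22611 in pre-iPS. A list of 11 macrophage genes summed to 15494 and 15657 in MEF, where all 11 reached 10, and to 573 to 1902 elsewhere, where 3 or 4 did and at least 1 of Emr1, Tyrobp, C1qb and C1qc was at 0 in each library. Of 4 pluripotency genes, all were lower in MEF than in iPS cells, while in pre-iPS against iPS cells Nanog and Esrrb were lower, Pou5f1 was higher (404191 ± 15905 against 99915 ± 7819, SD, n = 2 and 6) and Zfp42 was not called (0.02 on the log2 scale). The paper states that the retroviral transgenes, of which Oct4 (Pou5f1) is 1, are not silenced in pre-iPS cells. Their part in the Pou5f1 value was not tested. Clone 2 and the pre-iPS line had Y-linked gene values near 0 and Xist at 20979 ± 1367 and 19053 ± 4275 (SD, n = 2), whereas 'control' and clone 1 had Y-linked values of 875 to 2436 and Xist at 299 ± 25.2 and 149 ± 7. MEF had both, with Xist at 52862 ± 180 and Ddx3y, a Y-linked gene, at 373 ± 20. Of these 5 genes, at least 2 were called in every comparison that sets MEF, pre-iPS or clone 2 against another line, and there they cannot be told apart from line. Clone 1 against 'control' had 1 of the 5 called (Xist), and the comparison of passages had none. In bulk RNA, fewer cells that express a gene and less RNA of it per cell cannot be told apart either.

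The plot of normalised read counts by line shows all 9 genes in the 10 libraries. Sox17 is close to absent outside the iPS lines, Gata6 and Dab2 are highest in MEF, and Afp is low everywhere.

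**Figure D1:**
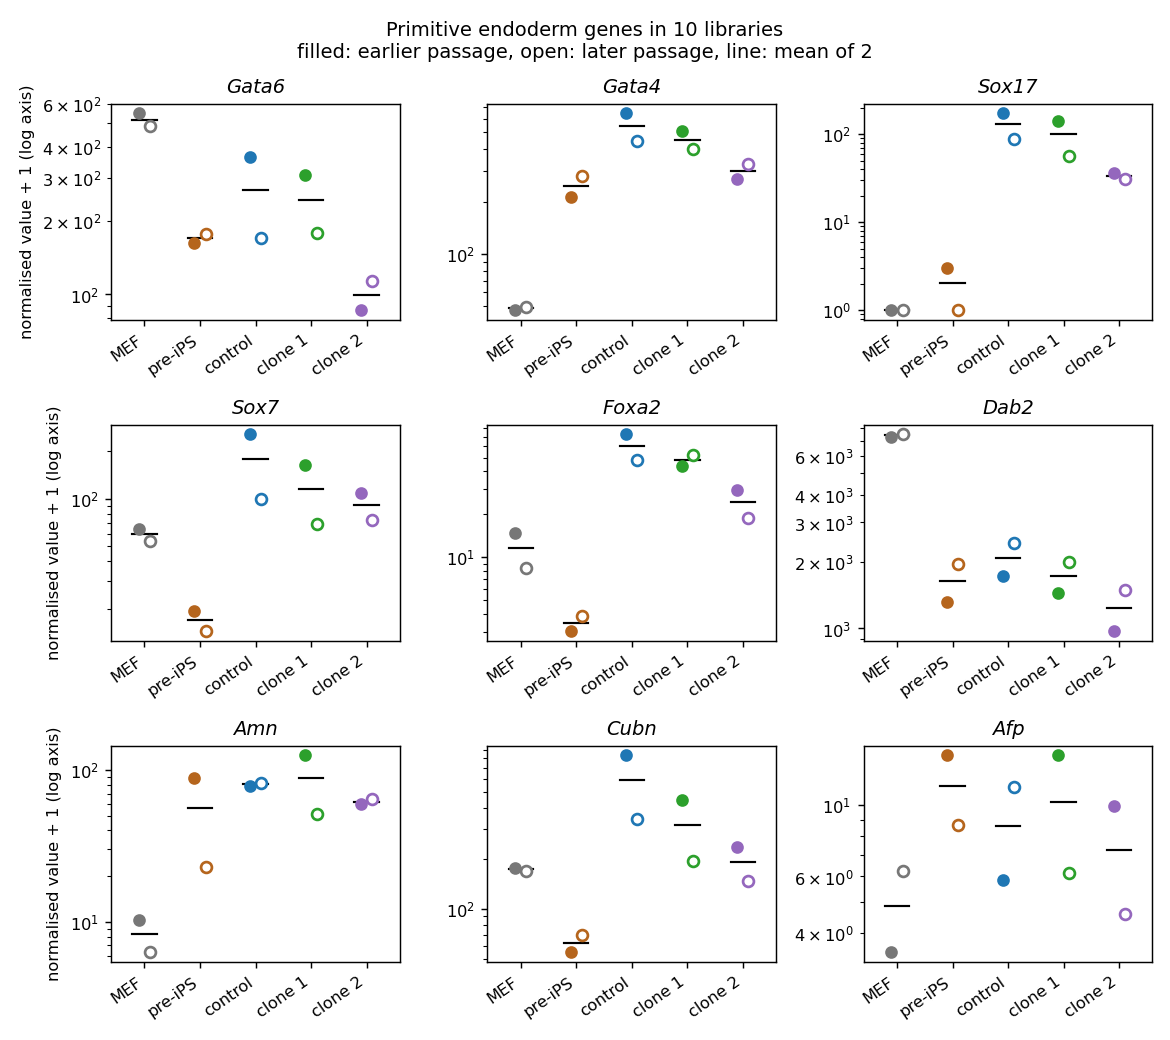
Normalised read count plus 1 (log axis, scaled separately for each gene) of the 9 primitive endoderm genes in the 5 lines. Clones 1 and 2 are 'rNetrin-1 derived'. Filled points are the earlier passage (2 for MEF, 5 for the others), open points the later (4 or 25), and the black line is the mean of the 2. Sox17 had 0 reads in both MEF libraries and normalised values of 29.6 to 171 in the 6 iPS libraries.

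Within the iPS lines the 9 genes covered a wide range of levels. Per kilobase of merged exons, the only scale on which levels of different genes are compared here, Dab2 was the highest at 228 ± 68.3, followed by Gata4 at 110 ± 34.2 (mean ± SD, n = 6 iPS libraries). A middle group held Amn at 41.2 ± 14.3, Sox7 at 38.6 ± 21.6, Gata6 at 31.1 ± 16.9 and Cubn at 24.5 ± 16.9 per kilobase, whose ranges overlapped. Sox17 (18.2 ± 12.2) and Foxa2 (18.2 ± 7.85) were level with each other, and Afp (2.29 ± 1.13) lay below every other member in every iPS library. In MEF the order per kilobase was different. Dab2 still led, at 1007 ± 15.5, but Gata6 came next at 79.2 ± 6.83, Gata4 stood behind Sox7 with 12.1 ± 0.405, and Sox17 was at 0 (SD, n = 2). In pre-iPS, Dab2 at 222 ± 60.8 and Gata4 at 62.7 ± 12.5 again led, while Foxa2 (1.04 ± 0.249) and Sox17 (0.214 ± 0.303) were at the bottom.

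The first comparison asks how the fully reprogrammed iPS lines differ from the fibroblasts they were made from. Of the 9 genes, 4 were lower in MEF than in iPS cells (Sox17, Amn, Gata4 and Foxa2), 2 were higher (Dab2 and Gata6) and 3 did not pass the test (Sox7, Cubn and Afp). A gene was called when limma gave an adjusted p under 0.05 and the log2 difference was at least 1. By that rule 48.2% of all genes tested were called in this comparison, 26.6% as lower and 21.6% as higher, so 6 of 9 is not far from the background. The median log2 difference of the 9 was -0.96, also with Sox17 set at its bound given below, and that of all genes was -0.09.

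Gata6, a zinc finger factor at the head of the primitive endoderm programme, had values of 547 and 484 in MEF at passages 2 and 4. In the iPS lines it ranged from 85.3 to 364, so that both MEF libraries stood above all 6 iPS libraries. The difference was 1.53 ± 0.31 on the log2(value + 1) scale (SE, adjusted p = 0.00158), and the exact two-sided permutation test over libraries gave p = 0.0714 where 0.0357 is the smallest it can give. Gata4, the related factor that follows Gata6, went the other way. Its values were 46.3 and 48.5 in MEF against 268 to 642 in the iPS libraries, a log2 difference of -3.10 ± 0.20 (adjusted p = 1.05e-06). The MEF and iPS libraries did not overlap for either gene.

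Sox17 and Sox7 are closely related SOX factors of the same lineage, and they also differed in how far apart the lines were. No read of Sox17 was counted in either MEF library, whereas the iPS libraries had 33 to 177 reads. Against the value of 3 reads in a MEF library, the iPS mean of 86.9 was at least 24.5-fold higher. Sox7 was present in MEF, with values of 63.5 and 52.9, below the lowest iPS library at 67.7, and its log2 difference of -0.96 ± 0.43 did not pass (adjusted p = 0.0666). A list of 10 endothelial genes, a cell type that also uses both factors, summed to 1497 and 1624 in MEF. The sums were 4070 and 4779 in pre-iPS and 3462 to 5782 in iPS cells. Of the list, Emcn was at 0 in pre-iPS, in 'control', in clone 1 at passage 25 and in clone 2 at passage 5. The part of this list in the Sox17 and Sox7 values was not tested. Foxa2, a forkhead factor of visceral and definitive endoderm, had 13.9 and 7.47 in MEF, from 12 and 7 reads, and 17.9 to 71.6 in iPS cells. It passed with -1.85 ± 0.34 (adjusted p = 0.000875), a call that was lost under quantile normalisation (-0.61, adjusted p = 0.14).

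Among the endocytic genes, Dab2, the clathrin adaptor that links the receptors to the coat, was 7314 and 7476 in MEF and 972 to 2431 in iPS cells. That is a mean ratio of 4.41 and a log2 difference of 2.20 ± 0.22 (adjusted p = 1.86e-05), with no overlap. Beside it stand the fibroblast and macrophage lists given above, of which 10 of 10 and 10 of 11 genes were called higher in MEF. Their part in the Dab2 and Gata6 values was not tested. Amn, the membrane anchor of the cubilin receptor, was at 9.30 and 5.33 in MEF, from 8 and 5 reads, and 50.3 to 124 in iPS cells (-3.19 ± 0.52, adjusted p = 0.000429). Cubn, the receptor itself, had 176 and 168 in MEF, inside the iPS range of 146 to 832 (-0.83 ± 0.40, adjusted p = 0.0836). Afp had no more than 15 reads in any library, with 2 and 5 in MEF and 4 to 15 in iPS cells, and no difference was detectable at this depth (-0.78 ± 0.51, adjusted p = 0.188). Without the 'control' passage 25 library, or without clone 1 at passage 25, Sox7 (-1.19 and -1.17) and Cubn (-1.05 and -1.04) were called as well, and DESeq2 on the recovered reads of all libraries also called Sox7 (-1.06, adjusted p = 0.0363).

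**Figure D2:**
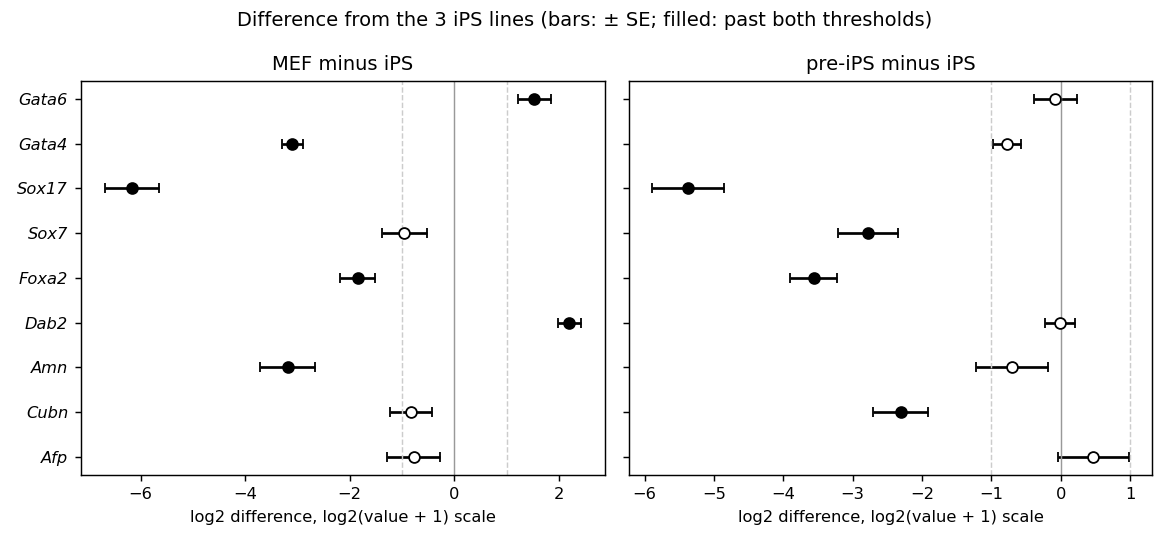
Log2 difference from the 3 iPS lines, on the log2(value + 1) scale, for MEF (left, 2 libraries) and pre-iPS (right, 2 libraries) against 6 iPS libraries. Bars are ± 1 SE, filled points passed both thresholds, and dashed lines mark a log2 difference of 1 in each direction. Gata6 and Dab2 lie to the right in MEF (1.53 and 2.20) and near 0 in pre-iPS (-0.08 and -0.01). The Sox17 points depend on the added 1, since the gene had at most 2 reads in any MEF or pre-iPS library.

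The second comparison sets the partly reprogrammed pre-iPS line against the iPS lines. Sox17, Foxa2, Sox7 and Cubn were lower in pre-iPS, none of the 9 genes was called higher (4.71% of all genes were), and Gata4, Gata6, Dab2, Amn and Afp did not pass both thresholds. The 4 calls compare with 16.3% of all genes called and 11.6% called lower. The median log2 difference was -0.77 for the 9 genes and 0 for all genes. Leaving out any 1 of the 10 libraries kept all 4 calls.

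Sox17 had 2 reads in the pre-iPS library of passage 5 and none at passage 25, where 3 reads would have given a value of 2.88. Summed and scaled by depth, its pre-iPS level was 0.0111 times that of the iPS libraries, from 2 against 544 reads (95% exact interval 0.00135 to 0.0405, counting error only). For Foxa2 the corresponding ratio was 0.057, from 5 against 266 reads (interval 0.0184 to 0.135). Every pre-iPS library was below every iPS library for both genes. Foxa2 was also lower in pre-iPS than in MEF, with values of 2.04 and 2.88 against 13.9 and 7.47 (-1.71 ± 0.41, adjusted p = 0.00532), from at most 12 reads in a library.

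Sox7 was at 18.4 and 13.4 in pre-iPS, well under the lowest iPS value of 67.7, with a log2 difference of -2.78 ± 0.43 (adjusted p = 0.00137). Cubn was at 54.1 and 69.1 in pre-iPS, also under its iPS minimum of 146 (-2.31 ± 0.40, adjusted p = 0.00242). Thus the receptor Cubn was lower in pre-iPS, whereas its partners Amn and Dab2 did not pass. Amn had 87.7 at passage 5 and 22.1 at passage 25 of the same line, a spread that covered the iPS mean of 75.9 (-0.70 ± 0.52, adjusted p = 0.316). Without the passage 5 library Amn was called (-1.67, adjusted p = 0.0461), and without the passage 25 library its sign changed (0.27). Dab2 was 1311 and 1942 in pre-iPS against an iPS mean of 1677 ± 502 (SD, n = 6), and the log2 difference was -0.01 ± 0.22 (adjusted p = 0.966).

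Of the 5 transcription factors, the 2 GATA factors were the ones not called in pre-iPS. Gata6 read 162 and 176, inside the iPS range (-0.08 ± 0.31, adjusted p = 0.864). Gata4 read 210 and 279, at the lower edge of the iPS range, and its log2 difference of -0.77 ± 0.20 had an adjusted p of 0.015 but stayed under the threshold of 1. Afp had 13 and 8 reads and no detectable difference (0.47 ± 0.51, adjusted p = 0.496).

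Set directly against MEF, pre-iPS cells were higher in Gata4 and Amn and lower in Dab2, Gata6, Foxa2, Sox7 and Cubn. Those 7 calls of 9 compare with 43.2% of all genes, 22.4% higher and 20.9% lower. Gata4 was 5.16 times the MEF mean (log2 difference 2.33 ± 0.24, adjusted p = 3.4e-05) and Amn 7.50 times (2.49 ± 0.64, adjusted p = 0.00707). The Amn ratio rests on 8 and 5 reads in MEF and 86 and 23 in pre-iPS. Dab2 was 0.22 times (-2.21 ± 0.27, adjusted p = 9.48e-05), Gata6 0.328 times (-1.60 ± 0.38, adjusted p = 0.00452), Sox7 0.273 times (-1.82 ± 0.53, adjusted p = 0.013) and Cubn 0.358 times (-1.48 ± 0.49, adjusted p = 0.024). The Cubn call was lost without any 1 of the 4 libraries compared (adjusted p 0.051 to 0.106), that of Sox7 without pre-iPS passage 25 (0.0687) or MEF passage 2 (0.0679), and that of Amn without MEF passage 4 (0.0519). Sox17 had at most 2 reads in these 4 libraries, so no ratio is given, and Afp did not pass (1.25 ± 0.63, adjusted p = 0.103). This comparison shares its libraries with the 2 above.

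Next, the 'rNetrin-1 derived' clones were compared with the 'control' iPS line, which asks whether rNetrin-1 during derivation goes with a different level of these genes. None of the 9 was called for the mean of both clones (2.11% of all genes were), nor for clone 1 alone (1.41%) or clone 2 alone (2.42%). At an unadjusted p under 0.05 the counts were 2, 0 and 6 of 9, against 18%, 17.2% and 18.7% of all genes. edgeR on the recovered reads also called none in these 3 comparisons, and DESeq2 called Cubn for both clones and Gata6, Sox17 and Cubn for clone 2.

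All 9 log2 differences of both clones against 'control' were negative, from -0.04 for Afp to -1.20 for Cubn, as were 51.4% of all genes. The median was -0.71 against -0.01 for all genes. The 9 values come from the same 6 libraries and are not independent. Cubn was at 832 and 344 in 'control', 447 and 192 in clone 1 and 235 and 146 in clone 2 (passages 5 and 25), and the 2 groups of libraries overlapped (-1.20 ± 0.42, adjusted p = 0.184). Sox17 was at 171 and 87.6 in 'control', 142 and 55.4 in clone 1 and 35.7 and 29.6 in clone 2 (-1.17 ± 0.55, adjusted p = 0.315). The exact permutation test of 2 against 4 libraries cannot give less than 0.0667, and none of the 9 reached that.

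By line mean of log2 values, 8 of the 9 genes had the order 'control', clone 1, clone 2 from high to low. Of all genes tested, 18.6% had it, and Afp was the exception. For Amn the order rests on a log2 difference of 0 between clone 1 and 'control', and by mean value clone 1 (87.3 ± 52.3) was above 'control' (79.4 ± 2.82). Without the 'control' library of passage 5, clone 1 was no longer below 'control' for Gata4, Gata6, Sox17 and Sox7 (log2 differences of 0.02 to 0.46). For Gata4, Gata6, Sox17 and Foxa2, both clone 2 libraries lay below all 4 other iPS libraries, as was the case for 9.65% of all genes. Gata6 was 85.3 and 112 in clone 2, against 307 and 177 in clone 1 and 364 and 169 in 'control'. Foxa2 was 28.8 and 17.9 in clone 2, against 42.6 and 51.3 in clone 1 and 71.6 and 46.9 in 'control'. Gata4 was 268 and 326 in clone 2, 507 and 398 in clone 1 and 642 and 444 in 'control'.

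For clone 2 against 'control' the largest log2 differences were those of Sox17 (-1.88 ± 0.63, adjusted p = 0.152), Cubn (-1.52 ± 0.49, adjusted p = 0.137), Gata6 (-1.33 ± 0.38, adjusted p = 0.097) and Foxa2 (-1.31 ± 0.41, adjusted p = 0.131). With passage as a replicate block, Sox17 was called (-1.88, adjusted p = 0.0285). For clone 2 against clone 1, the same 9 genes were all negative, as were 51.1% of all genes. None of the 9 was called, where 0.966% of all genes were. At an unadjusted p under 0.05 in limma there were 3 of 9, against 16.6% of all genes. edgeR called none and DESeq2 called Gata6. Gata6 had a log2 difference of -1.24 ± 0.38 there (adjusted p = 0.154). Clone 1 and 'control' were closer by the median log2 difference of the 9 genes, at -0.27. That median was -0.85 for clone 2 against 'control' and -0.6 for clone 2 against clone 1. Single differences between clone 1 and 'control' ran from -0.87 (Cubn) to 0.20 (Afp). The Y-linked genes and Xist also separate clone 2 from both other iPS lines, and their part in this order was not tested.

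**Figure D3:**
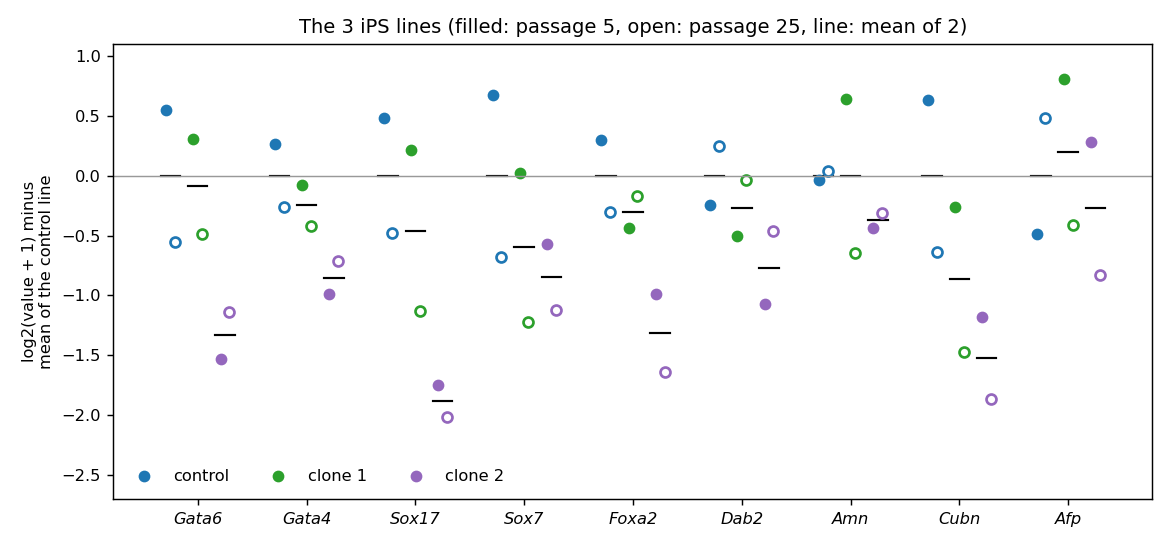
Log2(value + 1) of the 9 genes in the 3 iPS lines, relative to the mean of the 'control' line. Filled points are passage 5, open points passage 25, and the black line is the mean of the 2 libraries. Both clone 2 points of Gata6, Gata4, Sox17 and Foxa2 lie below the 4 other points of that gene. Sox7 changed more between passages of 'control' (-1.36) than line means differed (at most -0.84). So did Amn (-1.29 against -0.37) and Afp (-1.22 against -0.48) between passages of clone 1. For Cubn the passage change in 'control' was -1.27, and clone 2 differed from 'control' by -1.52.

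Passage 25 was compared with passage 5 in the 4 reprogrammed lines, with line as a block, which asks whether the genes drift in culture. None of the 9 met both thresholds, as against 1.69% of all genes, 4 of 9 had an unadjusted p under 0.05 (29.1% of all genes), and neither edgeR nor DESeq2 called any. Dab2 was higher at passage 25 in each of the 4 lines, with 1727 and then 2431 in 'control', 1446 and 1994 in clone 1, 972 and 1489 in clone 2 and 1311 and 1942 in pre-iPS. Its mean log2 change was 0.53 ± 0.06 (adjusted p = 0.00397), past the p threshold though not the size threshold. Sox7 was lower in each line, with 255 and then 99.1 in 'control', 162 and 67.7 in clone 1, 107 and 72.6 in clone 2 and 18.4 and 13.4 in pre-iPS, and was likewise past the p threshold only (-0.90 ± 0.22, adjusted p = 0.0432).

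Sox17 values at passage 25 were also lower in all 4 lines, with log2 changes of -0.96 in 'control', -1.34 in clone 1 and -0.26 in clone 2, and 2 reads against none in pre-iPS (-1.04 ± 0.27, adjusted p = 0.0523). Without the clone 2 pair of libraries it was called (-1.30, adjusted p = 0.0412), as it was with quantile normalisation (-1.02, adjusted p = 0.0379) or with genes of a mean under 50 left out (-1.04, adjusted p = 0.0481). Each of these settings kept the pre-iPS pair. In the main fit that pair entered as -1.61, a value that depends on the added 1. Cubn was lower at passage 25 in the 3 iPS lines, by -1.27, -1.21 and -0.68 on the log2 scale, but not in pre-iPS (0.35), and the mean of -0.70 ± 0.26 did not pass (adjusted p = 0.133). Over the 6 iPS libraries only, Cubn was called (-1.06, adjusted p = 0.0423). It was the 1 member called there, and Sox17 was not. Sox17, Sox7 and Cubn were thus the 3 of 9 genes with a lower value at passage 25 in all 3 iPS lines, a pattern of 25.3% of all genes.

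The remaining genes moved differently from line to line. Gata6 was lower at passage 25 in 'control' (-1.10) and clone 1 (-0.80) and higher in clone 2 (0.39) and pre-iPS (0.11), and Gata4 had the same split (-0.53, -0.35, 0.28 and 0.41). Amn differed in clone 1 (-1.29) and pre-iPS (-1.94) and hardly in 'control' (0.07) and clone 2 (0.12). The 'control' library of passage 5 was the highest of the 6 iPS libraries for 6 of the 9 genes, whereas 16.8% of all genes were highest there. Clone 2 held the lowest value for 7 of 9, 3 at passage 5 and 4 at passage 25, against 13.7% and 22.1% of all genes. Among the macrophage genes, 2 of 11 were called lower at passage 25, and none of 9 endothelial genes tested was called. Their part in the values of Dab2, Sox7 and Sox17 was not tested.

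**Figure D4:**
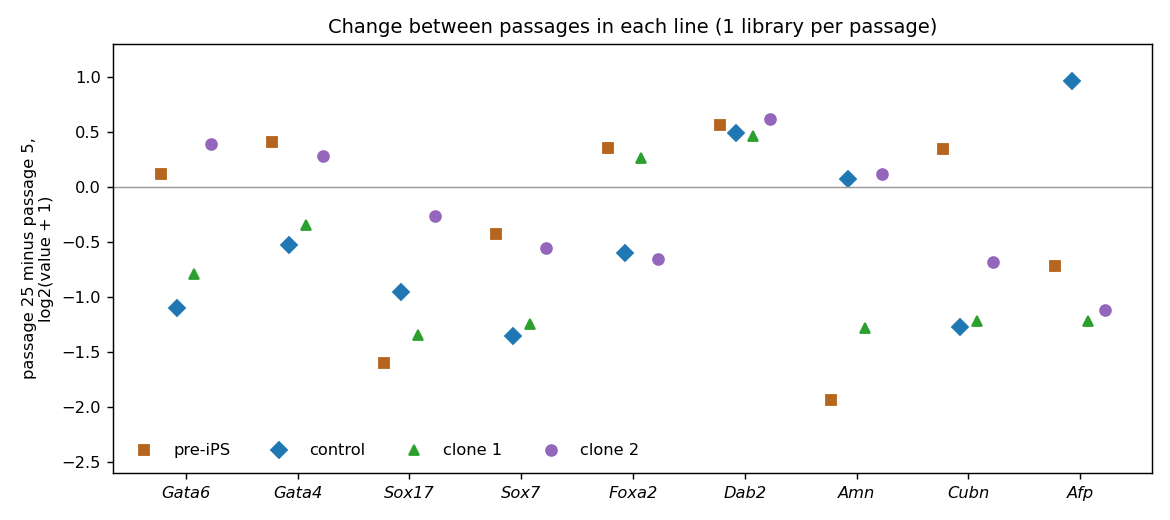
Passage 25 minus passage 5 on the log2(value + 1) scale for the 9 genes in pre-iPS, 'control' and clones 1 and 2, with 1 library at each passage and so no error per point. The 4 points of Dab2 lie together between 0.46 and 0.62, the 4 of Sox7 are all below 0, and those of Gata4 and Gata6 fall on both sides of 0.

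Genes around the primitive endoderm pathway were taken from 5 lists, and the inputs come first. Of 6 genes of FGF and PDGF input, Fgfr2 and Pdgfra were higher in MEF than in iPS cells, Fgf4 was lower, and 3 were not called. Fgf4, the ligand made by pluripotent cells, was at 7.80 ± 0.889 in MEF (SD, n = 2), 2503 ± 134 in pre-iPS (n = 2) and 3133 ± 1200 in the iPS lines (n = 6), a log2 difference of -8.39 ± 0.26 between MEF and iPS cells. Fgfr2, an FGF receptor of the lineage, was the 1 list gene called in pre-iPS against iPS, at 218 ± 29.8 against 836 ± 130 (-1.93 ± 0.13, adjusted p = 1.85e-05). Pdgfra, the PDGF receptor that marks primitive endoderm and also mesenchyme, was 15216 ± 177 in MEF and 2470 ± 629 in iPS cells (2.66 ± 0.21, adjusted p = 4.16e-06). None of the 6 was called among the iPS lines or between passages.

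Of 9 other transcription factors of endoderm, 5 were lower and 1 higher in MEF than in iPS cells, and 3 were lower in pre-iPS. Hnf4a, a nuclear receptor of visceral endoderm, had means of 0.535 in MEF and 0.478 in pre-iPS and 15.4 to 173 in the iPS libraries. Eomes was lower in MEF (-5.03 ± 0.49, adjusted p = 1.43e-05), as was Foxa3 (-4.46 ± 0.35, adjusted p = 4.17e-06), and neither passed in pre-iPS. Foxa1, a paralogue of Foxa2, was lower in pre-iPS, at 15.8 ± 0.682 against 78.7 ± 24.3 (-2.18 ± 0.21, adjusted p = 0.000114), and Mixl1 was lower there from few reads (-1.72 ± 0.45, adjusted p = 0.0158). Among the iPS lines, Gsc was lower in clone 1 than in 'control' (-1.53 ± 0.32, adjusted p = 0.0487). Eomes was lower at passage 25 (-1.02 ± 0.15, adjusted p = 0.00974).

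Of 16 secreted proteins of visceral endoderm, 13 were in the table and 12 were tested. Of these, 7 were lower and 2 higher in MEF than in iPS cells, and 7 were lower and none higher in pre-iPS. Lefty1, a Nodal inhibitor that pluripotent cells also make, was at 3491 ± 1887 in iPS cells, 172 ± 102 in pre-iPS and 125 ± 16.6 in MEF. Rbp4, a retinol carrier, was at 3.48 ± 0.852 in pre-iPS, 50.7 ± 21.6 in iPS cells and 245 ± 12.6 in MEF. Spink3 had no read in pre-iPS, against a mean of 11.2 in iPS cells, and Fgg had none in pre-iPS or MEF, against 8.13. Fgb had none in MEF and a mean of 38.7 in iPS cells, unevenly spread over the lines. At passage 25 Lefty1 was higher (1.07 ± 0.11, adjusted p = 0.00332) and Fgb lower (-1.12 ± 0.26, adjusted p = 0.0394).

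Of 7 tested partners of the endocytic receptors, 4 were higher and 2 lower in MEF than in iPS cells, and 1 was lower in pre-iPS. That 1 was Lrp2, which encodes megalin, the receptor that works with cubilin. It was at 107 ± 3.18 in pre-iPS, 377 ± 13.0 in MEF and 2891 ± 864 in iPS cells, with log2 differences of -4.68 ± 0.18 (adjusted p = 2.88e-06) and -2.88 ± 0.18 (adjusted p = 9.53e-07) from iPS cells. Lrp1, a related receptor of fibroblasts and many other cells, was higher in MEF (3.35 ± 0.16, adjusted p = 2.09e-07). Dab1, the neuronal relative of Dab2, was lower in MEF (-4.95 ± 0.28, adjusted p = 5.81e-07), so the 2 Dab adaptors differed from iPS cells in opposite directions. Among kidney and gut genes, the other tissues that use this receptor, 1 of 7 was lower and 2 were higher in pre-iPS.

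Of 13 parietal endoderm and basement membrane genes, 11 were higher in MEF and 1, Lama1, was lower. Lama1 encodes the laminin chain typical of the embryonic basement membrane. It was at 296 ± 2.70 in MEF, 121 ± 15.8 in pre-iPS and 1298 to 9610 in the iPS libraries, with log2 differences of -3.42 ± 0.47 (adjusted p = 0.00015) and -4.71 ± 0.47 (adjusted p = 0.000149) from iPS cells. Thbd (4.70 ± 0.29), Sparc (4.58 ± 0.41) and Serpinh1 (3.57 ± 0.16), which fibroblasts also make, were much higher in MEF. In pre-iPS, 5 of 13 were lower, among them Pth1r, the parathyroid hormone receptor of parietal endoderm (-2.57 ± 0.48, adjusted p = 0.00348), and Col4a1 (-1.41 ± 0.34, adjusted p = 0.011). None of the 13 was called among the iPS lines, where the Lama1 means were 6128 ± 4924 in 'control', 4599 ± 2819 in clone 1 and 1565 ± 378 in clone 2. Sparc and Pth1r were lower at passage 25 (-1.01 ± 0.06 and -1.05 ± 0.22, adjusted p = 0.000782 and 0.0291).

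**Figure D5:**
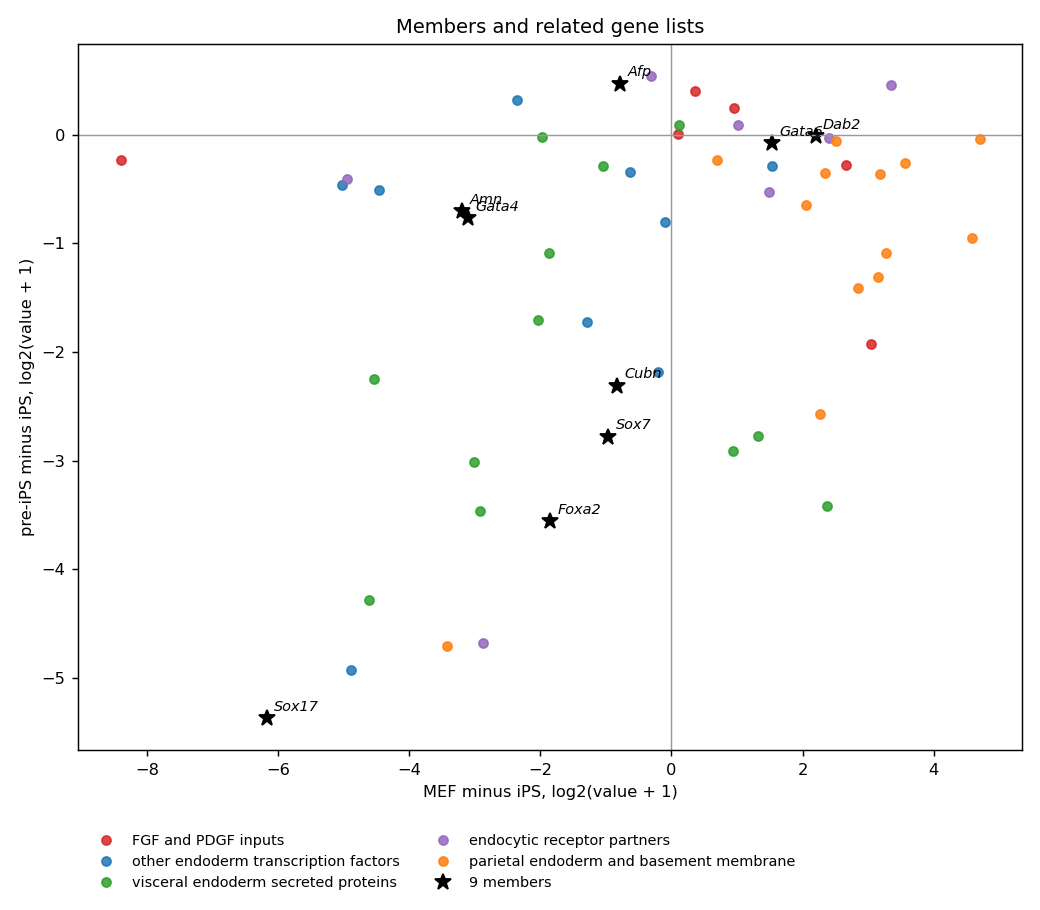
Log2 difference of MEF from iPS cells (horizontal axis) and of pre-iPS from iPS cells (vertical axis), on the log2(value + 1) scale, for the 9 primitive endoderm genes (stars) and the genes of 5 related lists (circles). Both axes share the iPS libraries. Sox17, Foxa2, Sox7 and Cubn lie well below 0 on the vertical axis, and basement membrane genes lie mainly to the right.

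Pluripotency genes, of which Nanog is the antagonist of Gata6, had their own order among the iPS lines. Nanog was at 4450 ± 1345 in 'control', 2776 ± 406 in clone 1 and 7146 ± 417 in clone 2 (SD, n = 2), and clone 2 was above clone 1 (1.37 ± 0.20, adjusted p = 0.0221). Esrrb (2.35 ± 0.42, adjusted p = 0.0401) and Zfp42 (2.27 ± 0.27, adjusted p = 0.0121) were likewise higher in clone 2 than in clone 1, whereas Pou5f1 was not called (0.08 ± 0.13). In the same comparison all 9 primitive endoderm genes had a negative sign without any passing the test, and 51.1% of all genes were negative. In clone 1 against 'control', Nanog was itself negative (-0.65 ± 0.20, adjusted p = 0.138). There 8 of the 9 genes were negative too, Amn only barely, against 52.3% of all genes. None of them was called there. A link between Nanog and the 9 genes was not tested.

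For the 3 members with the widest range of line means, the genes with the most similar profile over the 10 libraries were sought by the root mean square difference of centred log2 values. For Sox17, whose line means covered 6.95 log2 units, they were C86695 (0.42), Apol7b (0.43) and Try10 (0.47). For Foxa2 they were Gprc5c (0.37), Rfpl4b (0.39) and Hist1h3h (0.45), and for Gata4 they were Hpcal4 (0.23), Chrna1 (0.29) and H2-T24 (0.31). No other member was among them.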

How the data were processed

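Polyadenylated RNA was sequenced as 50 nt single reads, with all 10 libraries on 1 lane. The labels name no culture or preparation batch. The submitters' processing notes name CASAVA 1.8.2, TopHat2 2.0.8b, HTSeq 0.5.3p9, edgeR and mm10. The values deposited by the authors are a normalised signal, edgeR pseudo-counts per gene. MEF values had been equalised over both libraries and the others divided by a constant. Inverting this gave whole reads, with at least 99.87% of the values of each library within 0.05 of a whole read.

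The main test was limma 3.58.1 (trend) on log2(value + 1), with 1 mean per line and Benjamini-Hochberg adjustment over 17075 genes. A fold change on this scale understates that of low genes. Passages of 1 line were treated as repeated samples. Same-passage libraries of different lines deviated together (r from 0.235 to 0.504 over 6 pairs of lines), so passage pairs them, and a fit with passage as a block was run as an alternative. edgeR 4.0.16 (quasi-likelihood) and DESeq2 1.42.0 were run on the recovered reads. Intervals and the limit of 3 reads cover counting error only.

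Lengths and positions came from GENCODE M21. The members, lists and tests were chosen with earlier results of these data known. Named genes were all 9 members, up to 3 called genes of each related list with the largest change in MEF or pre-iPS against iPS, and any called among the iPS lines or between passages. The result of 1 such gene is not reported here. Sequences of Gata4, Gata6, Sox7 and Sox17 are not analysed here. The limma, edgeR and DESeq2 steps were run on simulated counts with known changes in pre-iPS only and no passage effects. The recovery of reads and the passage fits were not part of that run.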

Additional observations from a re-analysis of the deposited data

Results flagged for a closer look

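The change of Cubn between passages 5 and 25 was of opposite sign in pre-iPS (0.35 on the log2(value + 1) scale) and in all 3 iPS lines (-1.27 in 'control', -1.21 in clone 1 and -0.68 in clone 2). The difference between the pre-iPS change and the mean iPS change was 1.40 ± 0.35 (SE). Its limma interaction term, chosen after the values were seen, had an adjusted p of 1 over all genes, and the other 8 members were also at an adjusted p of 1. The pre-iPS side rests on 53 and 72 reads in 1 pair of libraries.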

How the results depend on the processing

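Of the 1289 alternative values for single members (Sox17 in pre-iPS against MEF left out for its few reads), 1218 kept their direction and their side of the threshold, 44 changed sign, 8 lost and 19 gained a call. Quantile normalisation changed the sign of Afp in MEF against iPS (1.15), Gata6 in pre-iPS against iPS (0.15) and Afp in both clones against 'control' (0.19), and took Gata4 between passages to 0, as edgeR did for Afp in both clones (0). Amn in clone 1 against 'control', 0 as deposited, came to 0.13 with it, 0 with 5 added, 0.14 with edgeR and 0.13 with DESeq2. Of the genes called in pre-iPS against iPS, 51% were higher with quantile normalisation, against 28.9% as deposited.

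Called genes moved by over 1.5 times as follows. With a mean of at least 50 they were 1758 in pre-iPS against iPS (2781 as deposited) and 106 in clone 2 against clone 1 (165). Fitted over the lines compared only, they were 134, 0, 17 and 6 for both clones, clone 1 and clone 2 against 'control' and clone 2 against clone 1 (360, 240, 413 and 165), and 160 between passages (289). The 0 goes with 2525 genes at an unadjusted p under 0.05. With passage as a replicate block they were 564, 490, 711 and 327 in those 4 comparisons, and clone 2 against 'control' gained 1 member, Sox17 (adjusted p = 0.0285). The block changed no other call of a member. Clone 1 against 'control' had 372 with quantile normalisation. DESeq2 gave 515, 670 and 435 for clone 1 and clone 2 against 'control' and clone 2 against clone 1, and 1, 3 and 1 members for both clones, clone 2 against 'control' and clone 2 against clone 1. Between passages, 1 member was called with a mean of at least 50, with quantile normalisation, and with the 6 iPS libraries.

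Leaving out each library in turn gave these ranges of called genes: 7923 to 8295 in MEF and 2324 to 2872 in pre-iPS against iPS, 6969 to 7406 between pre-iPS and MEF, 120 to 419, 63 to 264 and 126 to 377 for both clones, clone 1 and clone 2 against 'control', 14 to 260 between the clones and 97 to 294 between passages. The lowest values of the last 5 ranges came without 'control' passage 25, clone 1 passage 25, 'control' passage 25, clone 1 passage 25 and the clone 1 pair. Between passages, leaving out 1 library dropped both libraries of its line, since that fit uses only complete pairs. Members called were 6 to 8, 4 to 5, 5 to 7, 0 in each comparison among iPS lines, and 0 to 1 between passages. Log2 differences that crossed 0 were those of Gata6 (-0.26 to 0.11), Dab2 (-0.30 to 0.27) and Amn (-1.67 to 0.27) in pre-iPS against iPS, Amn (-0.51 to 0.13) and Afp (-0.52 to 0.45) in both clones and Afp (-0.84 to 0.28) in clone 2 against 'control', Gata4 (-0.51 to 0.02), Gata6 (-0.64 to 0.46), Sox17 (-1.13 to 0.21), Sox7 (-1.27 to 0.08), Amn (-0.65 to 0.64) and Afp (-0.41 to 0.81) in clone 1 against 'control', Sox7 (-0.87 to 0.38), Amn (-1.01 to 0.27) and Afp (-1.09 to 0.14) in clone 2 against clone 1, and Gata4 (-0.20 to 0.12) and Foxa2 (-0.33 to 0) between passages. The causes were not tested. Reads limit Afp in all lines, Sox17 and Foxa2 outside iPS cells and Amn in MEF.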

Other observations

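A few visceral endoderm genes had a different order among the iPS lines from the 9 members, with clone 2 highest. Clone 2 was the highest line for 3 of 12 tested visceral endoderm secreted proteins. The same held for 1 of 9 other endoderm transcription factors. Hnf4a was at 35.8 ± 10.9 in 'control', 17.0 ± 2.29 in clone 1 and 127 ± 64.8 in clone 2 (SD, n = 2), and clone 2 against clone 1 came to 2.74 ± 0.55 (SE; limma adjusted p = 0.054). Fgb, the fibrinogen beta chain, was at 14.3 ± 8.45, 9.67 ± 6.41 and 92.1 ± 22.6 in the same lines, with 3.25 ± 0.65 for clone 2 against clone 1 (adjusted p = 0.0541). Neither passed the threshold, and both were picked after their values were seen. The order 'control', clone 1, clone 2 from high to low was found in 1 of 12 tested visceral endoderm secreted proteins, 1 of 9 other endoderm transcription factors, 2 of 7 endocytic partners and 3 of 13 basement membrane genes. Of all genes tested, 18.6% had that order.

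Lists of other tissues that share members with the primitive endoderm were mixed. Of 7 cardiac genes, which share Gata4 and Gata6 as regulators, 5 were lower and 2 higher in MEF than in iPS cells, and 2 were lower and 1 higher in pre-iPS. Of 3 tested liver genes, 2 were lower in MEF and 1 in pre-iPS. Of 9 tested endothelial genes, 6 were lower and 2 higher in MEF, and 5 were lower and 2 higher in pre-iPS.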
